A study of Mus musculus with 6 samples.

Results

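The proteasome is the protease complex that degrades proteins tagged with ubiquitin, and 45 genes for its subunits, activators, inhibitor and assembly chaperones were followed in primary mouse airway basal cells. The genes were taken by symbol: every entry named Psma, Psmb, Psmc, Psmd, Psme, Psmf or Psmg followed by a number, without Psmb8, Psmb9 and Psmb10, which gave 45 of the 56748 genes in the deposited table. RNA was sequenced from tracheal epithelial cells of WT mice, labelled as airway basal stem cells, that had been cultured for 4 days. Cells of 3 libraries had received UK-5099 (UK5099 in the treatment label), an inhibitor of the mitochondrial pyruvate carrier, and cells of 3 libraries had received Y-27632, A8301 and DMH-1 together, here called the 3 inhibitors. Y-27632 is a kinase inhibitor, A8301 blocks the type I receptors of TGF-beta, and DMH-1 blocks those of BMP. No untreated cells were among the samples, so a difference cannot be assigned to either condition. The labels give neither the strain, sex, age and number of the animals nor whether the UK-5099 cultures held any of the 3 inhibitors. They also leave unsaid whether libraries of a group came from separate cultures, and the p-values therefore rest on a spread between samples that may be technical only.

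The 26S proteasome consists of a barrel-shaped 20S core particle, capped by 19S regulatory particles. The core is built of stacked rings of alpha and beta subunits, and only some beta subunits cut peptide bonds. The regulatory particle binds ubiquitin chains, removes them, and unfolds the substrate with a ring of ATPases. Other caps and inhibitors bind the core in place of the regulatory particle, and dedicated chaperones assemble both particles. When proteasome activity falls, the membrane-bound transcription factor encoded by Nfe2l1 is released and raises the transcription of most subunit genes together.

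Recovered gene reads ranged from 19909589 to 27037795 per library, with the lowest depth in UK-5099 replicate 3. The basal cell markers Krt5, Krt14 and Trp63 were abundant in all 6 libraries. Of 12 basal markers, 9 were higher with UK-5099 and 2 lower, Ngfr (65.8 against 304 normalized counts on average) and Aqp3 (23085 against 31165). Of all genes tested, 27.2% were called higher and 26.6% lower with UK-5099 (adjusted p under 0.05, limma). The summed level of 10 proliferation markers was 24615 to 26395 against 12194 to 13245 normalized counts, with 10 of 10 higher, and that of 10 club and secretory markers was 7183 to 8958 against 47394 to 50081, with 5 of the 5 tested lower. Summed levels of 12 leukocyte markers were 510.4 to 716 against 535 to 574, mostly from Cd68 (565 against 479 on average, not called), with Tyrobp at 0 in every library. Several other leukocyte markers were low and had lower values with UK-5099, with 6.60 against 27.7 for Cd74 (adjusted p = 0.000479, limma). Below the level for testing were 0.309 against 13.7 for Lyz2, 0 against 6.98 for Csf1r, 0 against 5.39 for Cd79a and 0 against 2.66 for Laptm5. Also below this level, Fcer1g (2.55 against 0.305) and Coro1a (8.56 against 5.66) went the other way, with overlapping groups. The sums of 10 fibroblast markers were 415 to 502 against 275 to 307, mostly from Fbln1, with Col1a2, Col3a1 and Lum at 0. Those of 10 endothelial markers were 109.6 to 138 against 216 to 231, with Cdh5, Emcn and Cldn5 at 0, and those of 10 multiciliated markers were 132 to 149.8 against 112 to 173. Xist was also higher (log2 fold change 0.77) and 4 Y-linked genes lower (Kdm5d -1.10, Eif2s3y -0.91, Ddx3y -0.82, Uty -0.60) with UK-5099. These marker and sex-linked differences run alongside every result below, and their part in the proteasome results was not tested. In bulk RNA, a change in the share of a cell type and a change in RNA per cell cannot be told apart.

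Most proteasome genes were modestly higher with UK-5099. Values are the authors' normalized counts, that is read counts divided by a size factor per library, and a mean of 10 or more was required for testing, which 43 of the 45 genes reached. Of these 43, 38 differed at an adjusted p under 0.05 (limma, Benjamini-Hochberg over 15704 genes), where 53.8% of all genes tested did. Higher were 36 and lower 2, against 27.2% and 26.6% of all genes tested. The median log2 fold change of the 43 genes, UK-5099 minus 3 inhibitors, was 0.36 (a 1.28-fold difference), against -0.00049 for all genes tested, whose middle 50% lay between -0.30 and 0.29. Differences were small in size. Called higher with a log2 fold change of 0.32 or more were 27 of the 43, against 18.9% of all genes tested. Called at least 1.5-fold higher were 4 of the 43, against 10.5%. All UK-5099 libraries lay above all 3-inhibitor libraries for 37 genes and below them for 2, against 30.7% and 30.1% of all genes tested. Of the 34 proteasome genes that averaged 1000 normalized counts or more, 32 were higher and 1 lower, where 31.6% and 36.7% of the 4991 genes at that level were. The share of calls over all genes that were higher was 50.6%, and the scaling moved it: to 39.1% with each library centred on its median, to 39.4% with rescaling to the upper quartile of all detected genes, and to 54.5% with the upper quartile of the genes tested. Under the first 2 of these scalings 32 proteasome genes were higher and 3 lower, and under the last 37 were higher and 2 lower.

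Summed over the 45 genes, normalized counts were 120183, 117050.0 and 114846 in the UK-5099 libraries, against 94632, 93935 and 92582 in the 3-inhibitor libraries. Every UK-5099 library lay above every 3-inhibitor library. As a share of the library, the sum was 0.488 ± 0.0127% (SD, n = 3) for UK-5099 and 0.389 ± 0.00140% (SD, n = 3) for the 3 inhibitors. The core particle, the regulatory particle and the core chaperones had higher sums with UK-5099, whereas the sum over activators and inhibitor overlapped between the groups.

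**Figure D1:**
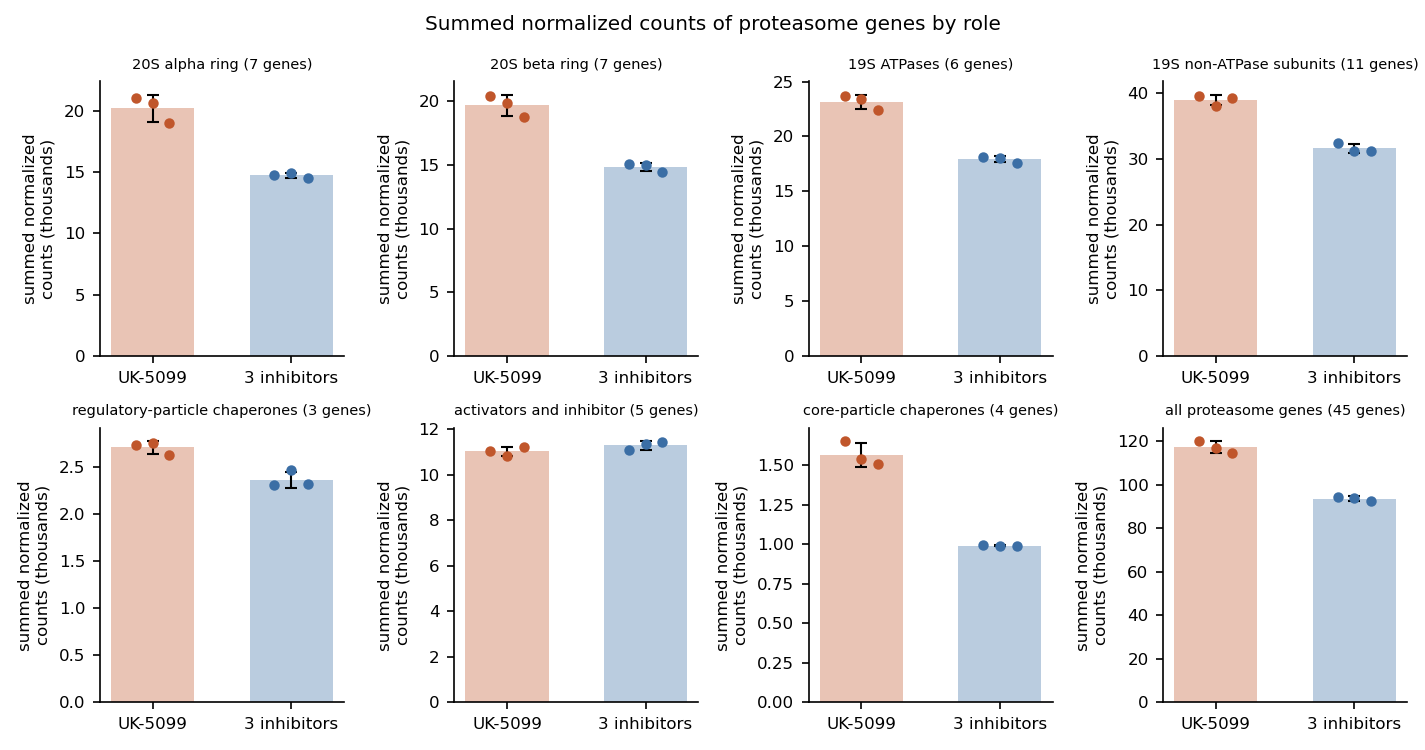
Summed normalized counts (vertical axis, in units of 1000) of the proteasome genes of each role, with 1 point per library, bars for the mean and error bars for the SD of 3 libraries, UK-5099 left of 3 inhibitors. UK-5099 libraries lie above 3-inhibitor libraries in every panel except that of activators and inhibitor, where the ratio of mean sums was 0.978.

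Because most subunit genes were higher together, their promoters are shown for a few members that carry motifs known from proteasome genes, beside a subunit gene that was not called. RefSeq start sites (build GRCm38.p6) were at hand for 37 of the 45 genes, 40 windows in all, and the 250 bases before each start were searched on both strands. The motif TGACNNNGC, the core of the antioxidant response element that the Nfe2l1 and Nfe2l2 proteins bind, was found in 5 of 40 windows (12.5%), against 10.2% of the 32851 windows of all genes. CCAAT, bound by the NF-Y complex, was found in 13 of 40 windows (32.5%), against 33.8% of all windows. The palindrome bound by nuclear respiratory factor, the product of Nrf1, was found in 1 window, that of Psma2 (2.50% against 0.782%), where the longest run of capitals shows it, and it reads the same on both strands. These motifs do not overlap each other in the windows printed. The shares for the response element and the CCAAT box were thus close to those of all windows, and a match of letters is a description, not a site in use. In the sequences, capitals mark the matches, and Psmd8 has none.
Psmb5 (chr14:54618026-54618145, minus strand, bases -150 to -31 from the start): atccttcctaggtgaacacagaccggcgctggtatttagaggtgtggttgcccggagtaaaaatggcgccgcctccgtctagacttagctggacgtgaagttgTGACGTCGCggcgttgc
Psmb6 (chr11:70525237-70525356, plus strand, bases -120 to -1 from the start): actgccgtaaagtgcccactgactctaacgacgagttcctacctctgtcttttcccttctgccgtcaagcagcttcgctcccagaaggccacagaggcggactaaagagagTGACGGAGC
Psma2 (chr13:14613092-14613211, plus strand, bases -150 to -31 from the start): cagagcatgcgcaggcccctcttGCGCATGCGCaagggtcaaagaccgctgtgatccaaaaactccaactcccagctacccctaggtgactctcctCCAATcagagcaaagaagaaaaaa
Psmb3 (chr11:97703284-97703403, plus strand, bases -150 to -31 from the start): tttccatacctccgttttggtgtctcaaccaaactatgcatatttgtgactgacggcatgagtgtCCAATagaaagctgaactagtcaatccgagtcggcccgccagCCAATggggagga
Psmd8 (chr7:29180704-29180823, minus strand, bases -150 to -31 from the start): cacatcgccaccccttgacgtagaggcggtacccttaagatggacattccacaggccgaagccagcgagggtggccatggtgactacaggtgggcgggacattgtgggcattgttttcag
In these windows the response element core begins at base -47 in Psmb5 and at base -9 in Psmb6, both genes of catalytic subunits. Psmb3 has a CCAAT box at -85 and another at -43, and Psma2 has the palindrome at -127 and a CCAAT box at -54. Of the 5 genes with the response element core, Psmb5, Psmb6, Psmc6 and Psmd12 were higher with UK-5099 and Psmd9 was not called. This was near the share among all tested proteasome genes, of which 36 of 43 were higher. Motifs and calls also came apart outside the windows printed. Psmd10, which was not called, had 3 CCAAT matches. No motif was found for Psma4, Psma5, Psmb4, Psmc4, Psmc5, Psmd1, Psmd2, Psmd5, Psmd6, Psmd11, Psmd13, Psmg1, Psmg3 and Psmg4, all higher. The relation of motifs to calls was not tested.

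All 7 genes of the alpha ring, which gates the entrance of the core particle, were higher with UK-5099, against 27.2% of all genes tested. Their log2 fold changes lay between 0.36 and 0.57, with a median of 0.47. Psma4 changed most among them. It stood at 3118, 2964 and 2804 normalized counts in the UK-5099 libraries, against 2032, 2018 and 1939 in the 3-inhibitor libraries. The lowest UK-5099 value was thus above the highest 3-inhibitor value, and the log2 fold change was 0.57 ± 0.05 (SE, adjusted p = 1.77e-06, limma). Psma1, Psma7, Psma3 and Psma5 followed at 1.41-fold, 1.39-fold, 1.38-fold and 1.38-fold higher. Psma6 and Psma2 were each about 1.28-fold higher, the smallest differences in the ring. Psma8, the alpha subunit of the testis, was at 0 in every library, so it was not tested.

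The 7 beta subunit genes expressed in most tissues were also all higher, against the same 27.2% of all genes tested. Log2 fold changes ran from 0.25 to 0.65 in these 7 genes. Their spread between genes (SD 0.135) was wider than that of the alpha ring (SD 0.0739). Psmb3, a structural subunit, led the core particle. It stood at 2918, 2956 and 2593 normalized counts in the UK-5099 libraries, against 1803, 1870.4 and 1722 in the 3-inhibitor libraries (log2 fold change 0.65 ± 0.06, SE, adjusted p = 2.23e-06, limma). Psmb1, another structural subunit, had the smallest difference at 1.19-fold (adjusted p = 0.00315, limma). The structural subunits Psmb4 and Psmb2 were 1.38-fold and 1.251-fold higher.

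The catalytic beta subunits cut after different residues. Psmb5, which cuts after hydrophobic residues, stood at 2199, 2186 and 2086 normalized counts in the UK-5099 libraries, against 1781, 1706 and 1635 in the 3-inhibitor libraries. Psmb6, which cuts after acidic residues, stood at 2369, 2317 and 2295 normalized counts in the UK-5099 libraries, against 1692, 1758 and 1706 in the 3-inhibitor libraries. Psmb7, which cuts after basic residues, stood at 1948, 1819.9 and 1796 normalized counts in the UK-5099 libraries, against 1374, 1332 and 1193 in the 3-inhibitor libraries. In each of these genes the groups did not overlap. The differences were 0.34 ± 0.05, 0.44 ± 0.04 and 0.51 ± 0.06 on the log2 scale for Psmb5, Psmb6 and Psmb7 (SE, adjusted p = 9.96e-05, 4.62e-06 and 2.16e-05, limma). Psmb11, the beta subunit of thymic cortex epithelium, was at 0 in 5 libraries and at 2.03 normalized counts in UK-5099 replicate 1, and was not tested.

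All 6 ATPase genes of the regulatory particle, whose proteins form the ring that unfolds substrates, were higher, against 27.2% of all genes tested. Psmc1 changed most, with 4840.2, 4701 and 4587 normalized counts in the UK-5099 libraries, against 3426, 3466 and 3418 in the 3-inhibitor libraries (log2 fold change 0.45 ± 0.04, SE, adjusted p = 1.88e-06, limma). Psmc2, Psmc6 and Psmc5 were close to it, at 1.34-fold, 1.33-fold and 1.31-fold. Psmc3 and Psmc4 differed less, at 1.20-fold and 1.15-fold, although the groups did not overlap in either.

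The 11 other subunits of the regulatory particle covered the widest range of the 26S complex, from 1.01-fold to 1.55-fold. Of these 11, 10 were higher and 1 was not called, where 27.2% of all genes tested were higher. Psmd14 encodes the protease that takes ubiquitin chains off the substrate. It stood at 2687, 2554 and 2642 normalized counts in the UK-5099 libraries, against 1775, 1630.0 and 1696 in the 3-inhibitor libraries (log2 fold change 0.63 ± 0.05, SE, adjusted p = 5.96e-07, limma), the smallest adjusted p of the 43 genes. The 2 large scaffold subunits of the base moved by similar amounts, Psmd2 by 1.38-fold and Psmd1 by 1.31-fold. Psmd2 was also the most abundant by normalized count (8086 ± 161 against 5858 ± 146 normalized counts, SD, n = 3). The lid subunits Psmd6, Psmd7 and Psmd12 were 1.33-fold, 1.26-fold and 1.26-fold higher. Psmd4, a ubiquitin receptor, was 1.20-fold higher.

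The lid subunits Psmd11, Psmd13 and Psmd3 were only 1.13-fold, 1.13-fold and 1.11-fold higher (adjusted p = 0.00542, 0.00717 and 0.0132, limma). Their calls ended with each library centred on its median or rescaled to the upper quartile of all detected genes, with adjusted p over all alternatives from 0.00109 to 0.0843 for Psmd11, from 0.00185 to 0.113 for Psmd13 and from 0.00240 to 0.249 for Psmd3. For Psmd3 the call was lost as well when UK-5099 replicate 1 was dropped (adjusted p = 0.0530), when 3-inhibitor replicate 2 was dropped (0.0744) and in the fit with no trend (0.0544).

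Psmd8, a lid subunit singled out after its values were seen, was the 1 gene of the 31 core and regulatory subunits here that was not called. It stood at 4506, 4315 and 4634 normalized counts in the UK-5099 libraries, against 4597, 4436 and 4348 in the 3-inhibitor libraries. The 3-inhibitor values lay within the range of the UK-5099 values, and the 95% confidence interval of the log2 fold change ran from -0.09 to 0.10. Its upper end, a 1.07-fold difference, lay below the lower end for Psmd14, Psmd2 and Psmd1 (0.53, 0.38 and 0.29 on the log2 scale). It lay above the lower end for the lid subunits Psmd11, Psmd13 and Psmd3 (0.081, 0.075 and 0.053), so the interval of Psmd8 overlapped theirs. The intervals of different genes come from the same libraries, and no test between genes was made.

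**Figure D2:**
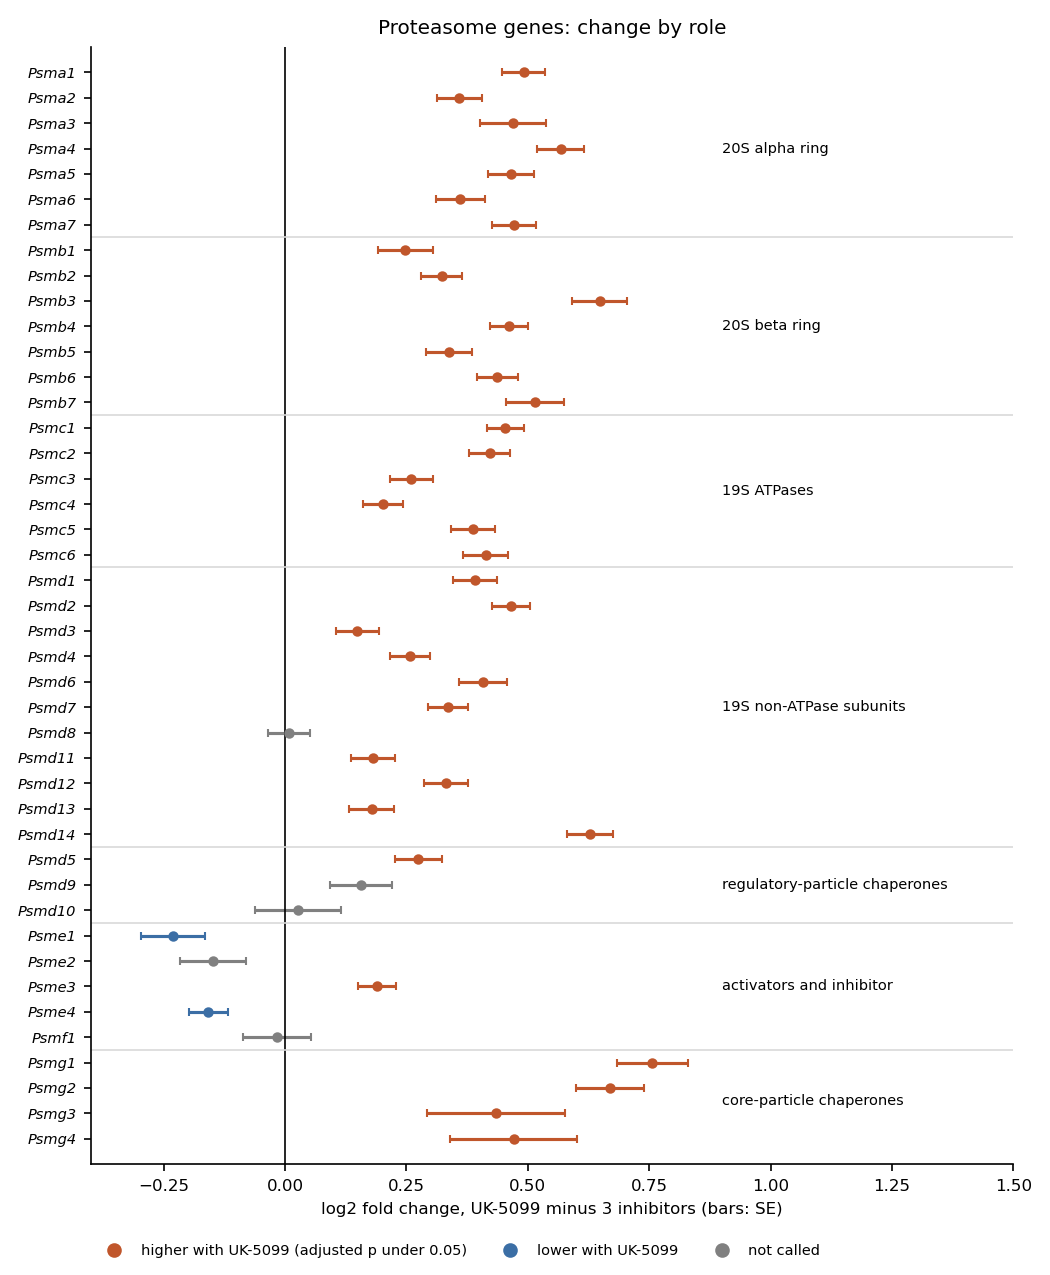
Log2 fold change of each of the 43 tested proteasome genes (horizontal axis, UK-5099 minus 3 inhibitors, bars for the SE of the limma fit), in order of role from the alpha ring at the top to the core chaperones at the bottom. Core and regulatory subunits lie right of 0, Psmd8 only just, at 0.00772, and the activators lie on both sides.

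The 4 chaperones that build the core particle were all higher, against 27.2% of all genes tested. Their median log2 fold change, 0.57, was the highest of the roles. Psmg1 and Psmg2 encode partners of a dimer on which the alpha ring is assembled. Psmg1 stood at 666, 614 and 597 normalized counts in the UK-5099 libraries, against 370.0, 391 and 349.9 in the 3-inhibitor libraries (log2 fold change 0.76 ± 0.07, SE, adjusted p = 4.71e-06, limma). This 1.69-fold difference ranked first among the 43 genes. Psmg2 stood at 679, 626 and 637 normalized counts in the UK-5099 libraries, against 433, 384 and 403 in the 3-inhibitor libraries, 1.59-fold higher (adjusted p = 9.12e-06, limma).

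Psmg3 and Psmg4, partners of another assembly dimer, were expressed at lower levels and were 1.35-fold and 1.39-fold higher (adjusted p = 0.0222 and 0.00950, limma), with SE of 0.14 and 0.13, the widest among the 43 genes. Psmg3 lost its call on dropping UK-5099 replicate 2 (adjusted p = 0.0599) or 3-inhibitor replicate 1 (0.0909), and under the same pair of scalings as Psmd11, with values over the alternatives from 0.0155 to 0.0909. Psmg4 lost it on dropping UK-5099 replicate 1 (adjusted p = 0.0511), with values from 0.00383 to 0.0511.

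Of the 3 chaperones of the regulatory particle, 1 was higher, a count near the 27.2% of all genes tested. Psmd5, which holds the ATPase Psmc2 during assembly, stood at 1541, 1578 and 1453 normalized counts in the UK-5099 libraries, against 1246, 1281 and 1249.7 in the 3-inhibitor libraries (1.21-fold higher, adjusted p = 0.000539, limma). Psmd9 did not overlap between the groups (677 ± 31.1 against 607 ± 30.6 normalized counts, SD, n = 3) but missed the threshold (adjusted p = 0.0607, limma), and it passed in the voom fit to recovered reads scaled to their total and with rescaling to the upper quartile of the genes tested (adjusted p = 0.0453 and 0.0212, with values from 0.0212 to 0.405). Psmd10, also known as the oncoprotein gankyrin, was not called, with a 95% confidence interval from -0.17 to 0.22 on the log2 scale.

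Both proteasome genes called lower with UK-5099, Psme1 and Psme4, encode activators. Of the 5 genes for activators and inhibitor, 1 was higher, 2 were lower and 2 were not called. These counts were near the 27.2% higher and 26.6% lower of all genes tested. Psme1 and Psme2 encode the alternating subunits of the interferon-induced cap of the core particle. Psme1 stood at 693, 677 and 619.9 normalized counts in the UK-5099 libraries, against 823, 743 and 771 in the 3-inhibitor libraries. The groups did not overlap, and the log2 fold change was -0.23 ± 0.07 (SE, adjusted p = 0.0108, limma). The call was lost on dropping 3-inhibitor replicate 1 (adjusted p = 0.0557, with values from 0.00112 to 0.0557).

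Psme2 stood at 579, 584 and 635 normalized counts in the UK-5099 libraries, against 622, 696 and 675 in the 3-inhibitor libraries, and here the groups overlapped. It was not called (adjusted p = 0.0845, limma), but was called lower after median centring, after rescaling to the upper quartile of all detected genes and on dropping UK-5099 replicate 3 (adjusted p = 0.0135, 0.0148 and 0.0245, with values from 0.0135 to 0.267). Psme4, a large activator that forms a cap by itself, stood at 4992, 4922 and 5189.5 normalized counts in the UK-5099 libraries, against 5467, 5688 and 5704 in the 3-inhibitor libraries (log2 fold change -0.16 ± 0.04, SE, adjusted p = 0.00566, limma). Its groups did not overlap either.

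Psme3, the nuclear activator of the same family as Psme1, went the other way. It stood at 4280.4, 4107 and 4218 normalized counts in the UK-5099 libraries, against 3653, 3642 and 3755 in the 3-inhibitor libraries (log2 fold change 0.19 ± 0.04, SE, adjusted p = 0.00149, limma). Psmf1, which encodes an inhibitor of the core particle, was not called and overlapped between the groups (529.5 ± 22.9 against 536 ± 32.4 normalized counts, SD, n = 3), with a 95% confidence interval from -0.17 to 0.14 on the log2 scale.

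Within the UK-5099 group the order of the libraries was alike for the rings of the core and the ATPases and differed for the non-ATPase genes. Among the 14 genes of the alpha and beta rings, UK-5099 replicate 3 had the lowest value of its group in 13, and among the 6 ATPase genes in 5. Among the 11 non-ATPase genes of the regulatory particle it was lowest in 2, and UK-5099 replicate 2 in 9. Psmb1, for example, stood at 4655, 4419 and 3956 normalized counts in the UK-5099 libraries, against 3752, 3655 and 3548 in the 3-inhibitor libraries. UK-5099 replicate 3 was also the library of lowest depth, and the part of depth in this was not tested. Without that library the count was 36 higher and 3 lower, Psme2 being the added gene.

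**Figure D3:**
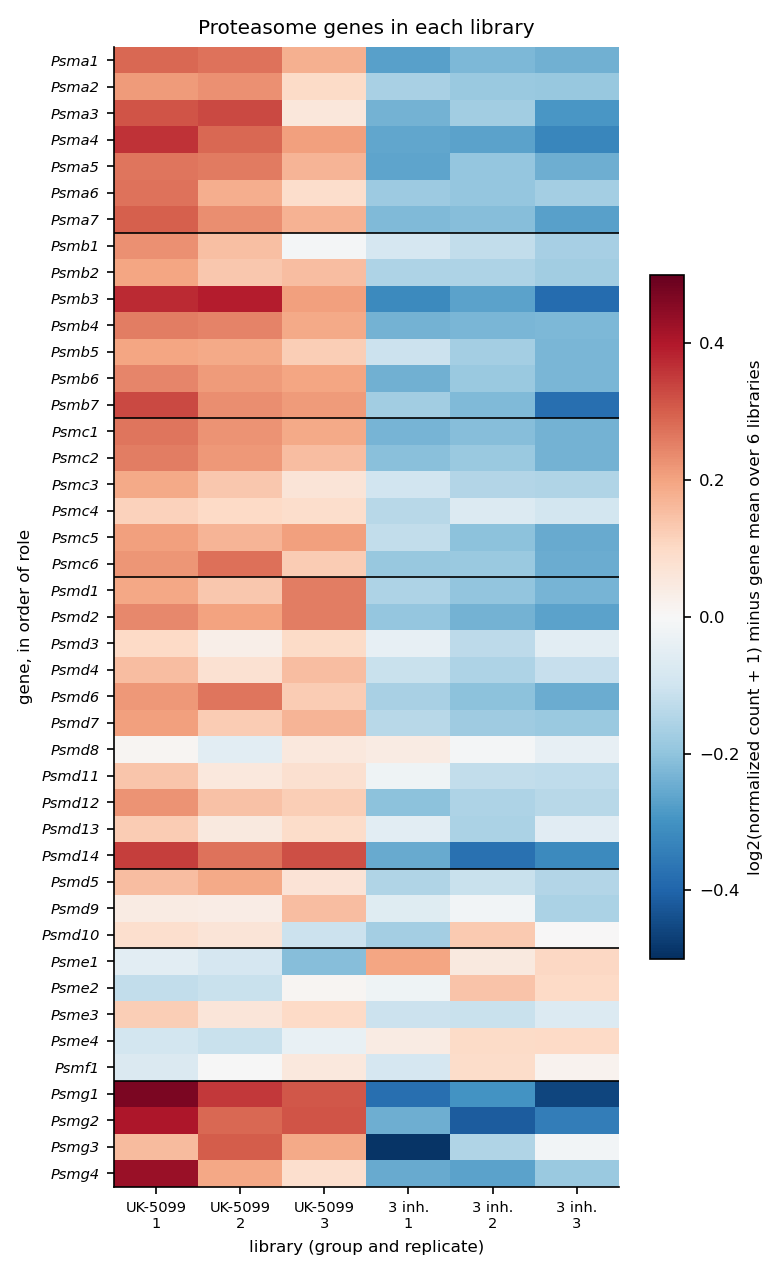
Each tested proteasome gene in each library, coloured by log2(normalized count + 1) minus the gene's mean over the 6 libraries (red above, blue below), with genes in rows in order of role and UK-5099 libraries left of 3-inhibitor libraries. Core, ATPase and core chaperone rows are mostly red with UK-5099 and blue with the 3 inhibitors, whereas Psmd8 and Psmf1 show no such split and Psme1 and Psme4 show the opposite.

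Levels can be compared between genes only per length, so normalized counts were divided by the length of the principal transcript in GENCODE vM21, available for 45 of 45 genes. On this scale the 31 core and regulatory subunits had a median of 2348 normalized counts per kb with UK-5099 and 1826 with the 3 inhibitors. They covered a 3.47-fold range with UK-5099 and a 3.65-fold range with the 3 inhibitors. The highest with UK-5099 was Psmb3, at 3684 ± 260.4 with UK-5099 against 2348 ± 97.0 with the 3 inhibitors (SD, n = 3). Next came Psmb4, at 3518 ± 87.8 with UK-5099 against 2555 ± 11.8 with the 3 inhibitors, and Psma7, at 3411 ± 145 with UK-5099 against 2459 ± 55.2 with the 3 inhibitors. These neighbours lay within each other's spread in the UK-5099 libraries. The highest with the 3 inhibitors was Psmd8, at 2912 ± 104 with UK-5099 against 2896 ± 81.9 with the 3 inhibitors, so its rank differed between the groups. The lowest per kb with UK-5099 was Psmd13, at 1062 ± 28.8 with UK-5099 against 939 ± 38.0 with the 3 inhibitors, next to Psma3, at 1102 ± 113 with UK-5099 against 793 ± 32.7 with the 3 inhibitors, which did not differ from it beyond the spread. Psma2 and Psma3 have the longest listed transcripts of the alpha ring, 2911 and 2846 bases, and if shorter forms prevail in these cells their level per kb is understated.

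**Figure D4:**
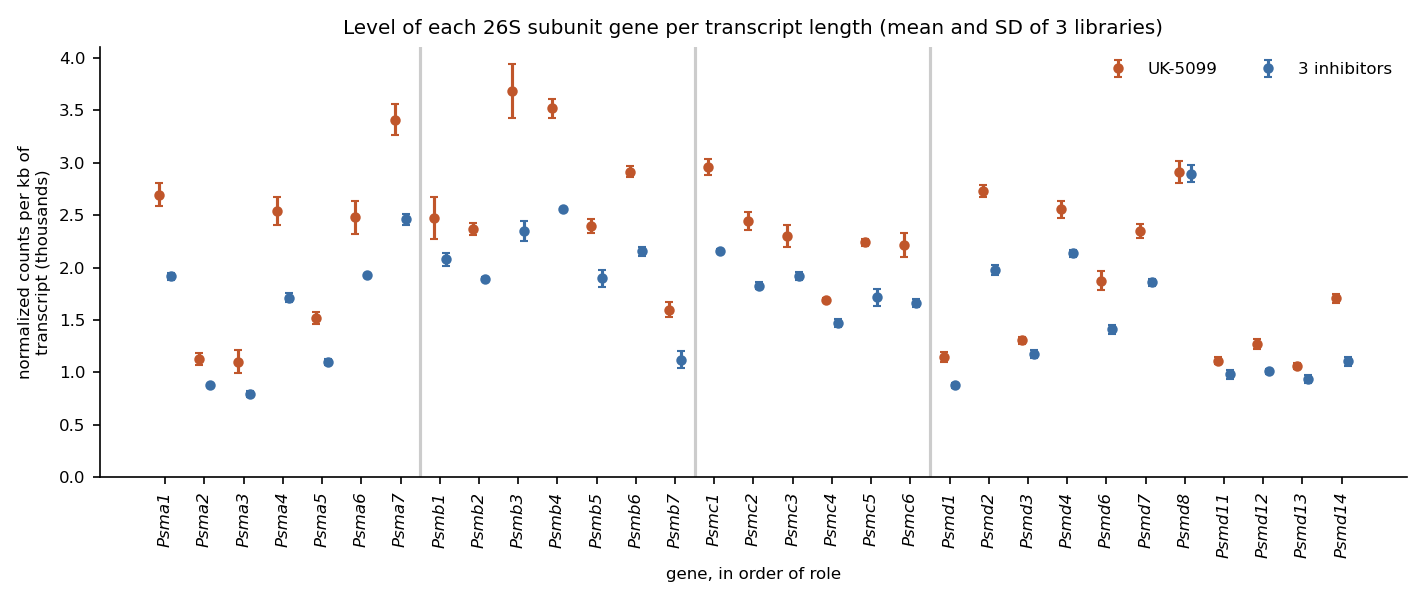
Normalized counts per kb of transcript (vertical axis from 0, in units of 1000) of the 31 core and regulatory subunit genes, as mean and SD of 3 libraries for UK-5099 (left point of each pair) and 3 inhibitors (right point). The left point is higher in every pair but that of Psmd8, where the points nearly coincide.

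Psmg1, Psmg2, Psme1, Psme2 and Psmf1 lay below every core and regulatory subunit gene in normalized counts per kb. Psmg1 averaged 599.5 ± 34.7 with UK-5099 against 355 ± 19.5 with the 3 inhibitors (SD, n = 3). Psmg2, its partner, averaged 611 ± 26.4 with UK-5099 against 384 ± 23.2 with the 3 inhibitors. Psme1 and Psme2, which form 1 cap, differed from each other by less than their spread. Psme1 averaged 597 ± 34.6 with UK-5099 against 700.3 ± 36.4 with the 3 inhibitors and Psme2 623 ± 32.0 with UK-5099 against 690.5 ± 40.0 with the 3 inhibitors. Psme4 averaged 776 ± 21.4 with UK-5099 against 866 ± 20.4 with the 3 inhibitors and Psme3 1577 ± 33.0 with UK-5099 against 1383 ± 23.4 with the 3 inhibitors. Psmf1 was the lowest of the activators and inhibitor, at 139 ± 6.01 with UK-5099 against 141 ± 8.51 with the 3 inhibitors. Across the 43 genes, the log2 fold change had a Pearson correlation of 0.013 with the log2 level and of -0.38 with the log2 transcript length, given as a description over genes measured in the same libraries.

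The immunoproteasome genes Psmb8, Psmb9 and Psmb10, whose products replace Psmb5, Psmb6 and Psmb7 in immune and interferon-treated cells, were low and none was called. Psmb8 stood at 12.2, 13.9 and 9.74 normalized counts in the UK-5099 libraries, against 11.3, 15.2 and 7.31 in the 3-inhibitor libraries. Psmb9 stood at 9.14, 7.42 and 17.1 normalized counts in the UK-5099 libraries, against 10.3, 9.83 and 14.6 in the 3-inhibitor libraries. Psmb10 stood at 119, 121 and 98.7 normalized counts in the UK-5099 libraries, against 102, 116 and 66.7 in the 3-inhibitor libraries. The groups overlapped in each (adjusted p = 0.815, 0.846 and 0.264, limma). At these counts the precision was low, with a 95% confidence interval for Psmb8 from -0.69 to 0.93 on the log2 scale.

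Of 11 other components of the complex, Paaf1 had no entry under that name, and of the 10 tested 7 were higher and 1 lower (median log2 fold change 0.19), against 27.2% and 26.6% of all genes tested. Sem1, the smallest lid subunit, stood at 2226, 2259 and 1865 normalized counts in the UK-5099 libraries, against 1626, 1594 and 1514 in the 3-inhibitor libraries (1.34-fold higher, adjusted p = 0.000325, limma). Adrm1, a ubiquitin receptor of the regulatory particle, differed in direction. It stood at 2256, 2134 and 2165 normalized counts in the UK-5099 libraries, against 2387, 2499 and 2382 in the 3-inhibitor libraries (log2 fold change -0.15 ± 0.04, SE, adjusted p = 0.0131, limma), and the call was lost on dropping 3-inhibitor replicate 2 (adjusted p = 0.0710, with values from 0.000689 to 0.0710). Uchl5, the deubiquitinase that Adrm1 anchors, was 1.37-fold higher, and Usp14, the other deubiquitinase bound to the particle, 1.34-fold higher (adjusted p = 0.000153 and 6.78e-06, limma). Txnl1, a thioredoxin of the regulatory particle, was 1.17-fold higher. Pomp, which places the beta subunits on the alpha ring, was 1.15-fold higher, a call lost with rescaling to the upper quartile of all detected genes and with median centring (adjusted p = 0.0562 and 0.0617, with values from 0.000135 to 0.0617). Ecpas, which tethers proteasomes, and Ube3c, a ubiquitin ligase bound to them, also had calls that were lost under these scalings, with adjusted p over the alternatives from 0.000929 to 0.194 and from 0.00191 to 0.128.

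Of the 10 tested genes of factors that control proteasome transcription, 2 were higher and 3 lower, near the 27.2% and 26.6% of all genes tested, and the median log2 fold change was -0.11. Ddi1 was at 0. Nfe2l1 itself was lower. It stood at 8692, 8109 and 8873 normalized counts in the UK-5099 libraries, against 10527, 9944 and 9777 in the 3-inhibitor libraries (log2 fold change -0.24 ± 0.05, SE, adjusted p = 0.00116, limma). Nfe2l2, the regulator of antioxidant genes, was lower as well (-0.26 ± 0.04). Ngly1, which strips sugars from the Nfe2l1 protein before it can act, was higher (0.29 ± 0.05), and Ddi2, the protease that cleaves it, was lower (-0.13, adjusted p = 0.0414, limma). Ddi2 kept its call on dropping UK-5099 replicate 3 but lost it on dropping any of the other 5 libraries, and over all alternatives its adjusted p ran from 0.00191 to 0.163. Nfyb, a subunit of the CCAAT-binding NF-Y complex, was higher (0.28 ± 0.07), and Nfya and Nfyc were not called (-0.07 and -0.08). Nfyc, whose UK-5099 values all lay below its 3-inhibitor values, was called lower after rescaling to the upper quartile of all detected genes and after median centring (adjusted p = 0.0121 and 0.0103, with values from 0.0103 to 0.386). Nrf1 and Foxo4, not called at the deposited scaling, were called lower under these scalings as well, with values from 0.00515 to 0.190 for Nrf1 and from 0.01001 to 0.270 for Foxo4. Nrf1 was also called lower on dropping UK-5099 replicate 3 (adjusted p = 0.0235). These are levels of RNA, and the release of the Nfe2l1 protein takes place after translation.

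Among 6 ubiquitin genes and activating enzymes, 2 were higher and 2 lower (median log2 fold change 0.08), close to the 27.2% and 26.6% of all genes tested. Ubb, which encodes a chain of ubiquitin units, was lower. It stood at 27222, 26538 and 29036 normalized counts in the UK-5099 libraries, against 31604, 31897 and 30384 in the 3-inhibitor libraries (log2 fold change -0.18 ± 0.05, SE, adjusted p = 0.00648, limma). Uba1, the main enzyme that activates ubiquitin, was higher (0.19 ± 0.04), and so was Rps27a, which encodes ubiquitin fused to a ribosomal protein (0.27 ± 0.07). Both calls were lost after median centring, with adjusted p over all alternatives from 0.000422 to 0.0644 for Uba1 and from 0.00111 to 0.0744 for Rps27a. Rps27a lost it on dropping UK-5099 replicate 1 too (adjusted p = 0.0608) and in the fit with no trend (0.0744).

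Of 14 genes for shuttle factors and the Vcp segregase, which bring substrates to the proteasome, 7 were higher and 3 lower (median log2 fold change 0.08), where 27.2% and 26.6% of all genes tested were, so that the lower count was near this share. After rescaling to the upper quartile of all detected genes and after median centring, Ubqln1, Ubqln2 and Nploc4 were called lower too and Faf2 lost its call. Faf2 lost it as well on dropping UK-5099 replicate 1 or 3-inhibitor replicate 1 or 2, with no low filter and in the fit with no trend. Ubqln1 was also called lower on dropping UK-5099 replicate 3 and with a minimum mean of 50 normalized counts. The shuttle gene Rad23b was 1.29-fold higher (adjusted p = 1.39e-05, limma). Nsfl1c, a cofactor of Vcp, was 1.37-fold higher. Going the other way, the shuttle gene Ubqln4 was lower (-0.29 ± 0.05 on the log2 scale, SE), as were the zinc-finger genes Zfand2a (-0.35 ± 0.07) and Zfand5 (-0.32 ± 0.05), whose proteins bind the proteasome under stress.

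**Figure D5:**
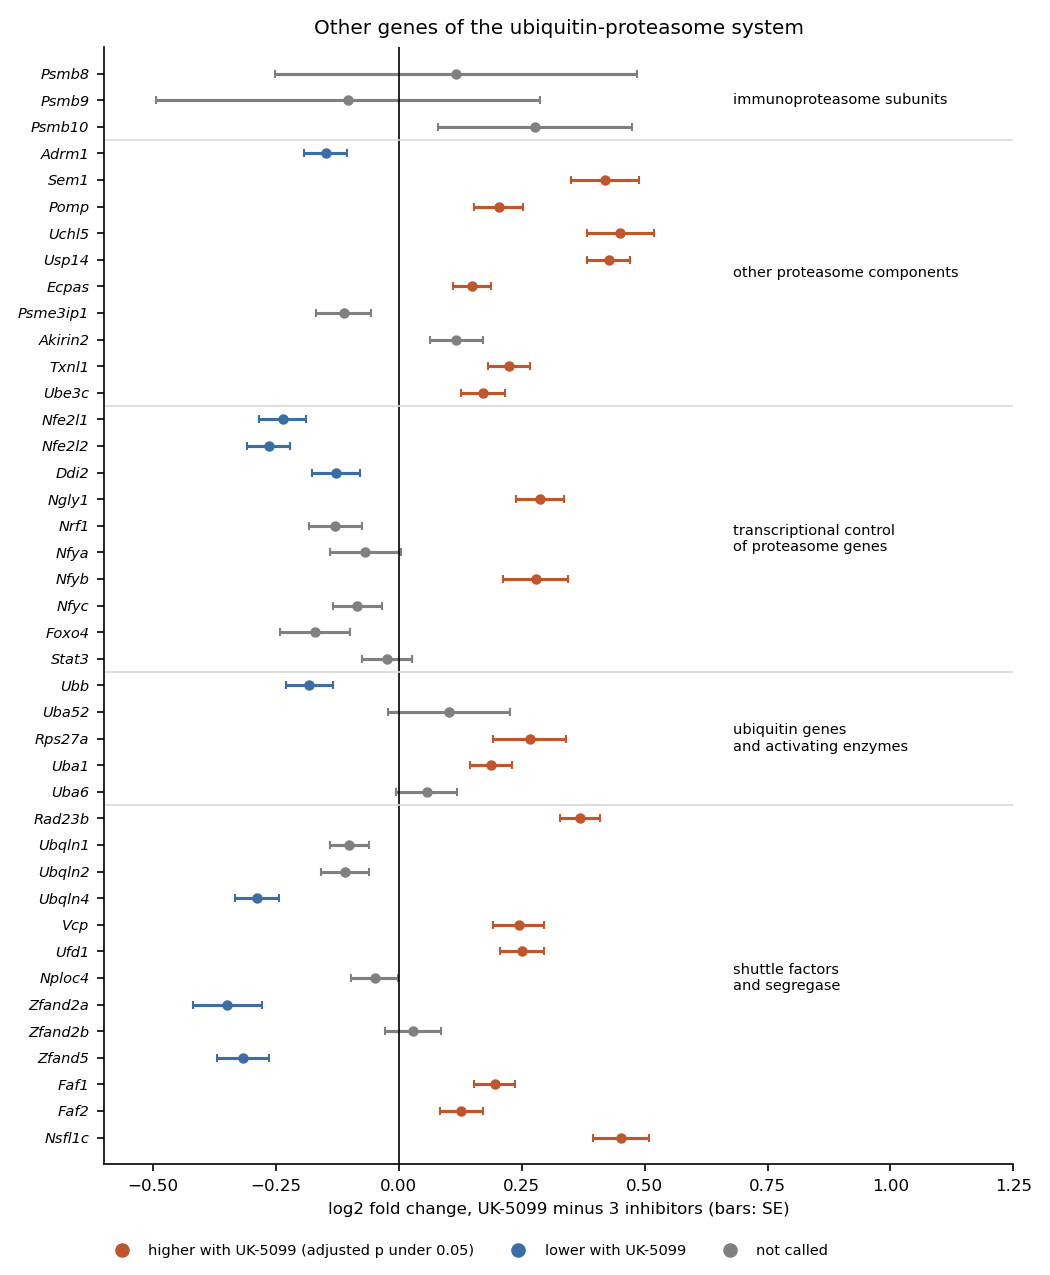
Log2 fold change (horizontal axis, UK-5099 minus 3 inhibitors, bars for the SE of the limma fit) of other tested genes of the ubiquitin-proteasome system, without a few that are not reported, grouped by list from the immunoproteasome at the top to shuttle factors at the bottom. Higher and lower genes stand side by side in the 3 lower groups, and Adrm1 is lower beside higher genes among the other components. Nfe2l1, Nfe2l2 and Ubb lie left of 0.

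Some counts can be shared with other loci. The processed copy Psma5-ps averaged 188 against 131 normalized counts and the copy Psme2b 186 against 235, and each difference had the sign of that of its parent gene. The way reads were divided between copies is not given in the sources used here. Exons of Psmb7 overlap those of Nek6 on the other strand by 405 bases, those of Psmd13 overlap Sirt3 by 152 and those of Psmc3 overlap Slc39a13 by 97. The mean levels of these neighbours were 319, 137 and 391 normalized counts, against 1577, 1991 and 3452 for Psmb7, Psmd13 and Psmc3. Whether counting used strand is not given in the sources used here.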

How the data were processed

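Total RNA of 3 samples per condition was made into libraries with a VAHTS V8 kit, per the labels. HISAT2 2.1.0, DESeq2 1.36.0 and build GRCm39 stand in the submitters' processing notes with no role, and a counter or annotation is not given there. The deposited values are the log2 of counts that the authors scaled by library size factors, and a count of 0 shows as a text error. Values were raised back to normalized counts, and reads were recovered as whole multiples of 1 step per library (99.988% to 99.992% of nonzero values within 0.02 of a whole number). Of 57107 entries, 359 repeated a gene identifier, which left 56748 genes.

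The 15704 genes averaging 10 or more normalized counts were fitted with limma 3.58.1 in R 4.3.3 on log2(normalized count + 1), eBayes with a trend, without covariates, two-sided, adjusted by Benjamini-Hochberg. Fold changes are on this log2 scale, which understates those of low genes. The fit was tested on simulated data. Alternatives were 3 other scalings, 2 other low filters, other pseudocounts, estimation settings and call rules, limma-voom on recovered reads, a replicate block, and each library left out. Scripts ran in Python 3.11.15.

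Members and lists were chosen with earlier results of these data known. Every member is named, and members with the largest rise and fall of a role and the catalytic subunits are given per library. Of the other lists, up to 4 called genes by smallest adjusted p and a fixed few are named, and the results of a small number of these genes are not reported here. Further genes, Psmd8, Psme2, Psme4 and Ddi2 among them, were picked after their values were seen. Gene lengths come from GENCODE vM21 and promoters from RefSeq, both of build GRCm38, matched by identifier or symbol.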

Additional observations from a re-analysis of the deposited data

How the results depend on the processing

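Of the 38 proteasome genes called, 32 were called in each of 18 alternative fits, and none changed direction. The 6 that lost the call in at least 1 fit were Psmd3, Psmd11, Psmd13, Psmg3, Psmg4 and Psme1. Centring each library on its median lowered the median log2 fold change of the proteasome genes to 0.27, and rescaling to the upper quartile of all detected genes also to 0.27, against 0.36 as reported. The median of all genes tested was then -0.089 and -0.087, against -0.00049. Rescaling to the upper quartile of the genes tested, an alternative added after seeing the data, gave 0.39. The count of lower genes was 2 as reported, 1 at an adjusted p threshold of 0.01 and 0 with a log2 change of at least 0.32 in size required. Leaving out each library in turn gave 36 to 39 called genes, 34 to 36 higher and 1 to 3 lower, a median log2 fold change of 0.34 to 0.38, and a difference in the share of all counts of 0.0939 to 0.106 percentage points. The single lower gene was found without 3-inhibitor replicate 1, where Psme1 lost its call. Libraries with the same replicate number deviated from their group means with correlations of -0.017, 0.12 and -0.089, so the numbers were not taken to pair libraries. With the replicate number as a block, 38 genes were called, 36 higher and 2 lower, and it changed no call of a proteasome gene. For Psmb8 and Psmb9, near 10 normalized counts, the 95% intervals also hold differences of the size seen in the subunits. The same holds for Psmb10, with an interval from -0.16 to 0.71 on the log2 scale.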

Other observations

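The balance of counts between the parts of the complex also differed between the libraries, given here as values with no test. Counts were not divided by transcript length here, so the shares compare libraries, not the levels of different genes. The summed counts of the alpha and beta rings were 0.655, 0.659 and 0.611 times those of the regulatory particle in UK-5099 replicates 1, 2 and 3, against 0.590, 0.607 and 0.593 in the 3-inhibitor replicates. UK-5099 replicate 3 lay just above the highest 3-inhibitor value. Psme1 and Psme2 together amounted to 3.07%, 3.11% and 3.32% of the counts of the rings in the UK-5099 libraries, against 4.85%, 4.81% and 4.99% in the 3-inhibitor libraries. For Psme4 these shares were 12.04%, 12.15% and 13.75% in the UK-5099 libraries, against 18.35%, 19.02% and 19.69% in the 3-inhibitor libraries. For Psme3 they were 10.3%, 10.1% and 11.2%, against 12.3%, 12.2% and 13.0%, so relative to the rings this activator was lower with UK-5099 although its own level was higher. The core chaperones Psmg1 to Psmg4 ran the other way, at 3.99%, 3.80% and 4.00% in the UK-5099 libraries, against 3.35%, 3.32% and 3.41% in the 3-inhibitor libraries. Psmb8, Psmb9 and Psmb10 together amounted to 2.15%, 2.25% and 2.03% of the counts of Psmb5, Psmb6 and Psmb7 in the UK-5099 libraries, against 2.55%, 2.94% and 1.95% in the 3-inhibitor libraries, where the groups overlapped.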
